A study of Mus musculus with 6 samples.

Results

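Transcripts of 10 genes at the core of transforming growth factor β (TGF-β) signaling were measured in muscle stem cells (MuSCs) sorted from injured muscle of mice that received resolvin D1 (RvD1) or vehicle. The genes were chosen by symbol among the 49671 genes listed for each library, each symbol matched 1 row, and they comprise 3 ligands (Tgfb1, Tgfb2, and Tgfb3), 3 receptors (Tgfbr1, Tgfbr2, and Tgfbr3), and 4 Smads (Smad2, Smad3, Smad4, and Smad7). TGF-β ligands are secreted in a latent form that is stored in the extracellular matrix. Once released, a ligand binds the type II receptor Tgfbr2, often presented by the coreceptor Tgfbr3 (betaglycan), and Tgfbr2 phosphorylates the type I receptor Tgfbr1. Tgfbr1 then phosphorylates Smad2 and Smad3, which enter the nucleus with Smad4, while Smad7 is induced by the pathway and blocks the receptors. In skeletal muscle, TGF-β is known to restrain myoblast differentiation and fusion and to promote matrix deposition.

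The 6 libraries came from female C57BL/6 mice aged 4 to 6 months, 3 given daily IP injections of 100 ng of RvD1, a lipid mediator made from docosahexaenoic acid, and 3 given vehicle (0.1% ethanol) over 72 hours. In every mouse both tibialis anterior (TA) muscles had been injured with BaCl2, a salt that kills myofibers, and uninjured cells were not analysed here. At day 3 after injury the 2 muscles of 1 mouse were pooled and cells positive for CXCR4 and β1-integrin and negative for Sca-1, CD11b, CD45, Ter119, and, in the labels, CD31 were sorted for RNA-Seq. Each mouse gave 1 library, so a group is 3 pools of sorted cells and not 3 cultures of 1 clone.

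Expected counts per library totaled 17962025 to 28149176 with RvD1 and 16148026 to 18755643 with vehicle. A count of 3 corresponded to 0.107 to 0.186 CPM (counts scaled to a common library total), a counting limit for 1 library that lies far below every value given here for the 10 genes. The 12 MuSC and myoblast markers, which include Pax7, Myod1, and Itga7, summed to 3616 to 4395 TPM (transcript counts scaled for length and library total) with RvD1 and 3363 to 3703 TPM with vehicle. Among them the stem cell factor Pax7 was at 4.03 to 8.5 TPM and the differentiation factor Myog at 818 to 1378 TPM over the 6 libraries. Of the genes behind the negative gates, CD45 (Ptprc) was at most 1.13 TPM and CD31 (Pecam1) at 0.25 to 3.61 TPM. In contrast, Ly6a, which encodes Sca-1, was present in every library, at 25.4, 22.4, and 17.3 TPM with RvD1 and 39.7, 26.3, and 30.3 TPM with vehicle. Its groups did not overlap (log2 fold change −0.62, edgeR unadjusted p = 0.0141, adjusted p = 0.971), and its counts were not whole in 5 libraries, so reads may be shared with other genes. RvD1 replicate 1 stood apart from the other libraries, since 30.6% of the 14494 genes tested had their highest CPM there, against 9.19% to 18.9% in each of the others. The estimates for the 10 genes and the pathway genes are therefore given with and without that library.

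Windows from the RefSeq promoter table on GRCm38.p6 were read for 5 of the 10 genes (Tgfb1, Tgfb2, Tgfbr1, Tgfbr2, and Smad3). This count does not show whether the table held windows for the other genes. The 250 bases upstream of the start site are shown for Tgfb1 and Tgfb2, because these ligand transcripts moved together across the libraries (Pearson's r = 0.946, given below), in capitals where a searched motif was found on either strand. The motifs were CAGAC (the Smad-binding element), GGGCGG (the GC box), TATAAA (the TATA box), and the cAMP response element TGACGTCA.
Tgfb1 (chr7:25686752-25687001, plus strand): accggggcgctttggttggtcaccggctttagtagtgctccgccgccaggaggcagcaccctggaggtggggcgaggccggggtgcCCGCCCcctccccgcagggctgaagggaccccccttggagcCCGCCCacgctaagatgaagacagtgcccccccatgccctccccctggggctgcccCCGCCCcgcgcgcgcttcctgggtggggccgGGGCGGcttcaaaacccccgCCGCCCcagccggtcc
Tgfb2 (chr1:186705990-186706239, minus strand): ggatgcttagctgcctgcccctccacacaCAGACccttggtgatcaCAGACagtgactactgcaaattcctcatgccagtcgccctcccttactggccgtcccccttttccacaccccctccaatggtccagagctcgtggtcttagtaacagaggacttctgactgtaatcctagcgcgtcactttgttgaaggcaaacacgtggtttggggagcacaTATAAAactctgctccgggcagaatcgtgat
The Tgfb1 window, with 75.2% G and C, held 5 GC boxes and none of the other motifs. The Tgfb2 window, with 53.6% G and C, held 2 Smad-binding elements and 1 TATA box. Among 32851 windows of the same length read from the table, 42.2% held CAGAC, 32.7% held GGGCGG, 12.4% held TATAAA, and 1.55% held TGACGTCA. The motifs are letter matches only, and Tgfb1 and Tgfb2, 1 pair of 45 among the 10 genes, had no motif of the search in common. Tgfbr1 and Tgfbr2, another close pair (r = 0.935), each held 1 CAGAC, for Tgfbr1 in 1 of its 2 windows. A link between motifs and profiles was not tested.

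Levels between genes were compared in TPM, which is scaled for transcript length. Smad4, the common partner Smad, was the most abundant of the 10 at 97.2 ± 11.0 TPM (SD over 6 libraries), followed by Smad2 at 59.3 ± 6.24 TPM. The signaling receptors came next, with Tgfbr1 at 41.9 ± 7.14 TPM and Tgfbr2 at 28.6 ± 5.84 TPM. The ligands lay close together, with Tgfb1 at 20.7 ± 4.64 TPM, Tgfb3 at 20.0 ± 6.64 TPM, and Tgfb2 at 19.9 ± 5.91 TPM. The lowest were Tgfbr3 at 11.0 ± 7.71 TPM, Smad7 at 9.59 ± 3.51 TPM, and Smad3 at 7.57 ± 1.22 TPM. Smad4 lay above Smad2 in 6 of 6 libraries with no overlap of their ranges. Smad2 over Tgfbr1, Tgfbr1 over Tgfbr2, and Tgfb2 over Tgfbr3 also held in 6 of 6 libraries, although the ranges overlapped. The order of Tgfb1, Tgfb3, and Tgfb2 was not resolved, since each of these exceeded the next in only 3 of 6 libraries, and the same was true of Tgfbr3 and Smad7. Summed by role, the 3 ligands reached 91.3 TPM in RvD1 replicate 1 and 44.1 to 62.1 TPM in the other libraries, the 3 receptors 121 and 64.7 to 79.0 TPM, and the 4 Smads 203 and 149 to 186 TPM. Within the Smads the mixture was narrow, with Smad4 at 55.1% to 57.2% and Smad2 at 32.6% to 36.0% of their summed TPM, while Smad7 ranged from 3.39% to 7.57%.

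**Figure D1:**
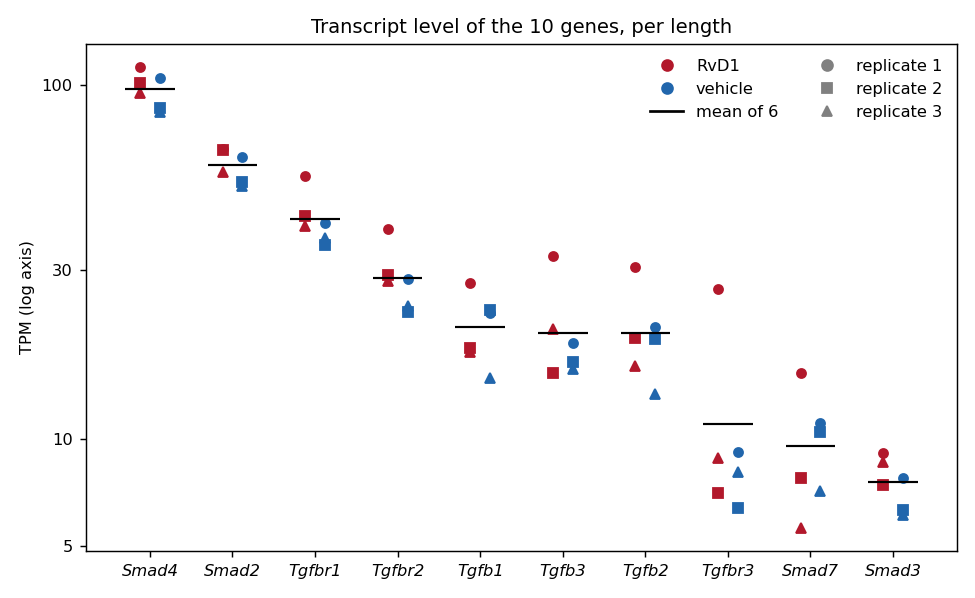
TPM (log axis) of the 10 genes in each library, ordered by their mean, with RvD1 libraries in red, vehicle libraries in blue, marker shapes for the replicate number, and a line at the mean of the 6 libraries. Smad4 sits at the top with 84.1 to 112 TPM and Smad3 at the bottom with 6.11 to 9.17 TPM, and RvD1 replicate 1 stands clear of the other libraries for Tgfbr3.

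Whether RvD1 changed these transcripts was tested with edgeR's quasi-likelihood test over all genes. All 10 genes had enough counts to be tested, and none passed a Benjamini-Hochberg adjusted p of 0.05 (smallest adjusted p = 0.971, edgeR), as was the case for 0% of all 14494 genes. None of the 10 had an unadjusted p under 0.05 in edgeR or in DESeq2, where 3.47% of all genes did in edgeR. The ranges of the groups in CPM overlapped for all 10, while 9.62% of all genes had ranges that did not overlap. The log2 fold change was above 0 for 10 of the 10, with a median of 0.14, against 53.5% of all genes and a median of 0.01. Of the 10, 9 were highest in RvD1 replicate 1. Without that library, 6 of the 10 were above 0, with a median of 0.02, against 50.3% of all genes and a median of 0.00097, and again none had an unadjusted p under 0.05, as 4.33% of all genes did.

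**Figure D2:**
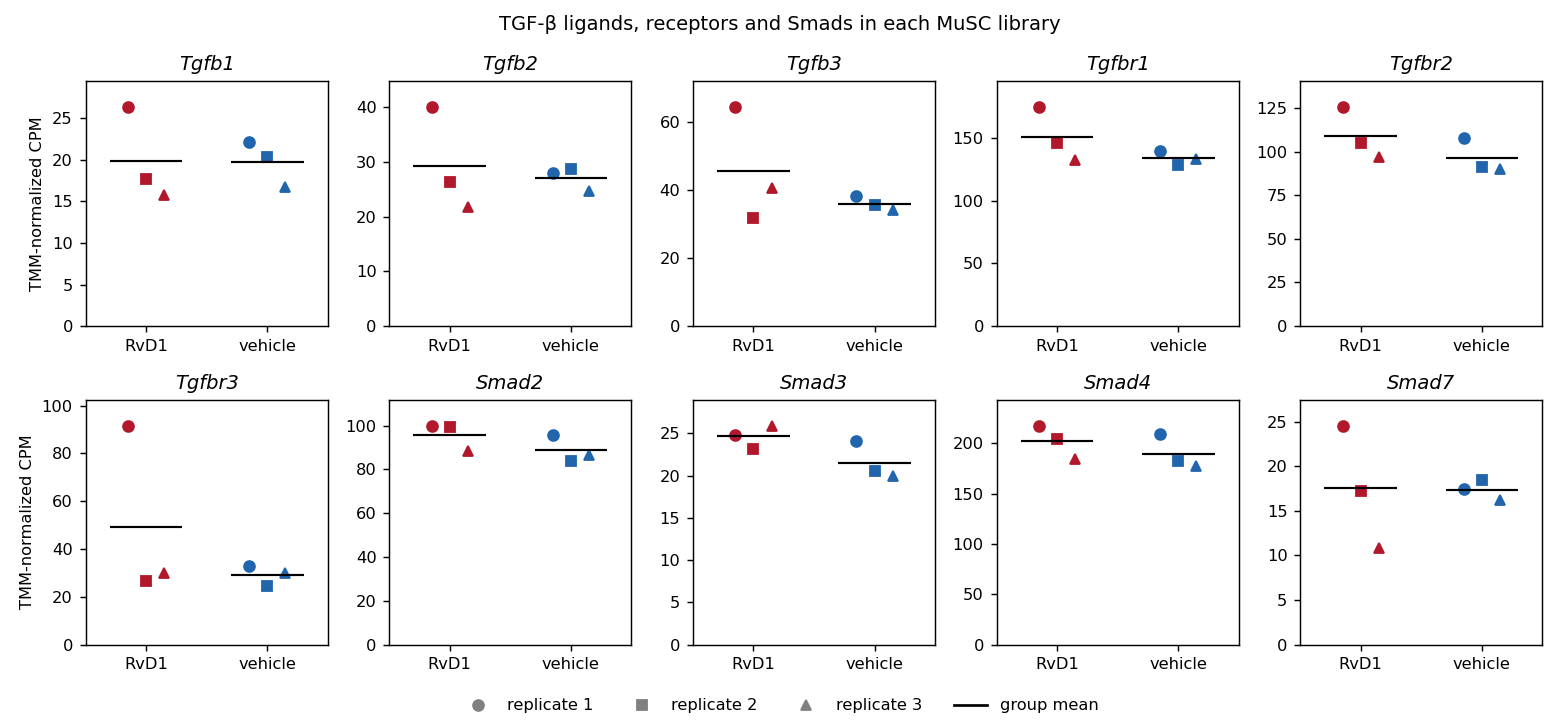
TMM-normalized CPM of each gene by group, 1 panel a gene with its own axis from 0, with 3 RvD1 libraries in red, 3 vehicle libraries in blue, and a line at each group mean. RvD1 replicate 1 (red circle) is the highest library in 9 of 10 panels, up to 91.5 CPM for Tgfbr3, and the groups overlap in every panel.

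Among the ligands, Tgfb1 (ENSMUSG00000002603, chromosome 7 of GRCm38, 25687002 to 25705077) is the form made by many immune and stromal cells. It was at 26.3, 17.7, and 15.8 CPM in RvD1 replicates 1, 2, and 3 and at 22.2, 20.4, and 16.8 CPM in vehicle replicates 1, 2, and 3. Its highest and its lowest library were both RvD1 libraries. Its log2 fold change was 0.01 (95% interval −0.46 to 0.48), a value that turned to −0.24 (−0.59 to 0.11) without RvD1 replicate 1. Tgfb2 (ENSMUSG00000039239, chromosome 1, 186622792 to 186705989), a ligand that depends on Tgfbr3 for strong binding to Tgfbr2, was at 40.0, 26.3, and 21.7 CPM with RvD1 and 28.0, 28.8, and 24.7 CPM with vehicle. Here too RvD1 libraries held the highest and the lowest value, with the vehicle libraries between them. For Tgfb2 the estimate was 0.11 (−0.37 to 0.59) over all libraries and −0.18 (−0.47 to 0.12) without RvD1 replicate 1.

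Tgfb3 (ENSMUSG00000021253, chromosome 12, 86056745 to 86079041), the ligand known for its part in palate fusion, was at 64.2, 31.7, and 40.6 CPM with RvD1 and 38.2, 35.5, and 34.0 CPM with vehicle. RvD1 replicate 1 was 1.81 times the median of the other 5 libraries, and RvD1 replicate 2 was the lowest of the 6. An estimate of 0.34 (−0.18 to 0.86, edgeR adjusted p = 0.971) on the log2 scale became 0.0066 (−0.28 to 0.29) without RvD1 replicate 1. The ligand mixture was then compared by library. Tgfb1 made up 30.3%, 34.3%, and 32.5% of the TPM of the 3 ligands with RvD1 and 36.5%, 39.3%, and 33.7% with vehicle. The share of Tgfb3 was 29.1% to 37.8% with RvD1 and 28.1% to 35.9% with vehicle, so no single ligand dominated in any library. Antisense genes overlap 2.14% of the exon bases of Tgfb2 (Gm29491) and up to 7.6% of those of Tgfb3 (Gm48008), and reads could not be assigned to a strand there.

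Of the receptors, Tgfbr1 (ENSMUSG00000007613, chromosome 4, 47353222 to 47414931), the type I receptor kinase, was at 174, 146, and 132 CPM with RvD1 and 139, 128, and 133 CPM with vehicle. RvD1 replicates 1 and 2 lay above every vehicle library, while RvD1 replicate 3 lay within the vehicle range. On the log2 scale the fold change was 0.18 (−0.08 to 0.43), and 0.06 (−0.13 to 0.25) without RvD1 replicate 1. Tgfbr2 (ENSMUSG00000032440, chromosome 9, 116084293 to 116175360), the type II receptor kinase that binds ligand, was at 126, 105, and 97.2 CPM with RvD1 and 108, 91.0, and 90.2 CPM with vehicle. The value of vehicle replicate 1 exceeded those of RvD1 replicates 2 and 3. For Tgfbr2 the log2 fold change was also 0.18 (−0.10 to 0.46), and 0.07 (−0.15 to 0.30) without RvD1 replicate 1. For these kinases the upper end of the interval over all libraries corresponds to a 1.35-fold and a 1.38-fold difference.

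Tgfbr3 (ENSMUSG00000029287, chromosome 5, 107106570 to 107289629), the coreceptor without kinase activity, varied most. It was at 91.5, 26.4, and 29.8 CPM in RvD1 replicates 1, 2, and 3 and at 32.9, 24.4, and 29.9 CPM in vehicle replicates 1, 2, and 3. RvD1 replicate 1 was 3.07 times the median of the other libraries, which lay close together. The log2 fold change of 0.76 (−0.21 to 1.72, unadjusted p = 0.108 and adjusted p = 0.971 in edgeR's quasi-likelihood test) became −0.05 (−0.37 to 0.27) when this library was left out. Likewise, the SD of its log2 CPM was 0.70 over 6 libraries and 0.17 over the other 5. Leaving out RvD1 replicate 2 or RvD1 replicate 3 raised the log2 fold change to 1.06 and 1.02, with an edgeR adjusted p of 0.725 and 0.788. Tgfbr3 made up 22.0% of the TPM of the 3 receptors in RvD1 replicate 1 and 8.92% to 11.8% in the other libraries. Its counts were not whole in 4 libraries, as happens when RSEM divides reads among genes, and Gm43422 overlaps 4.54% of its exon bases on the same strand.

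**Figure D3:**
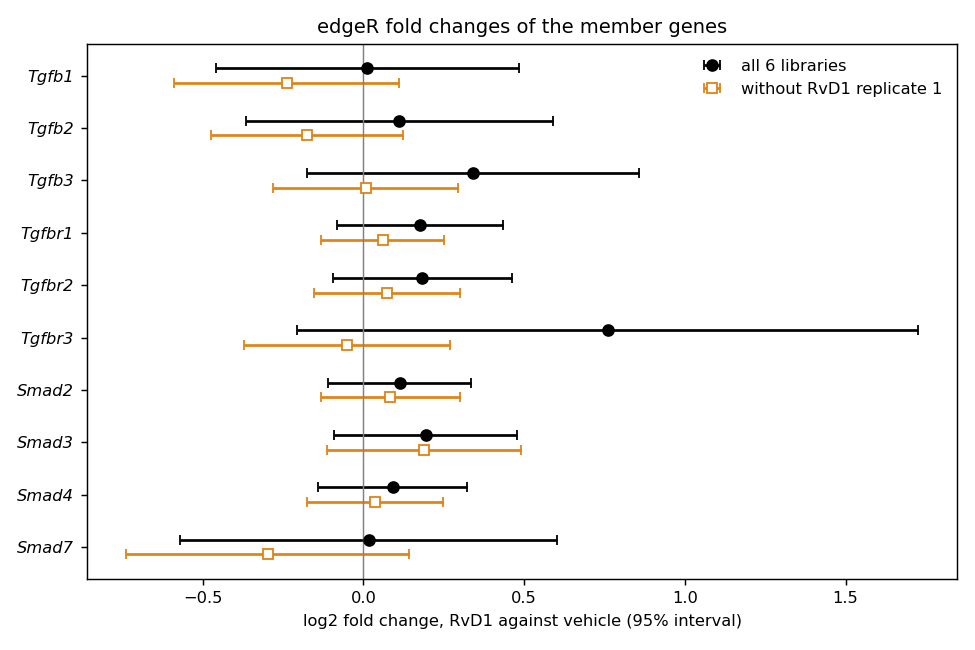
Log2 fold change of RvD1 against vehicle for each gene from edgeR, with 95% intervals, over all 6 libraries (black) and without RvD1 replicate 1 (orange). Every interval spans 0 in both fits, and the estimate for Tgfbr3 shifts from 0.76 to −0.05.

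Smad2 and Smad4 had the smallest spread of the 10 genes, with an SD of 0.11 and 0.12 log2 CPM over the 6 libraries, whereas Tgfbr1 had the smallest without RvD1 replicate 1, at 0.07. Smad2 (ENSMUSG00000024563, chromosome 18, 76241580 to 76310963), a receptor-activated Smad, was at 99.96, 99.6, and 88.3 CPM with RvD1 and 95.6, 84.0, and 86.8 CPM with vehicle. Its log2 fold change was 0.11 (−0.11 to 0.33), and 0.08 without RvD1 replicate 1. Smad4 (ENSMUSG00000024515, chromosome 18, 73639009 to 73703780) was at 217, 205, and 185 CPM with RvD1 and 209, 182, and 178 CPM with vehicle. The estimate was 0.09 (−0.14 to 0.32), and 0.04 without RvD1 replicate 1. For both genes vehicle replicate 1 lay among the RvD1 libraries. Differences beyond 1.26-fold for Smad2 and 1.25-fold for Smad4 in favor of RvD1 lie outside these intervals.

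Smad3 (ENSMUSG00000032402, chromosome 9, 63646767 to 63757994), the other receptor-activated Smad, was at 24.9, 23.2, and 25.9 CPM with RvD1 and 24.2, 20.6, and 19.9 CPM with vehicle. It was the only gene of the 10 with its highest value outside RvD1 replicate 1, and the groups overlapped by vehicle replicate 1 alone. Its log2 fold change was 0.19 (−0.09 to 0.48, edgeR adjusted p = 0.971) and stayed at 0.19 (−0.11 to 0.49) without RvD1 replicate 1. Smad7 (ENSMUSG00000025880, chromosome 18, 75367529 to 75395935), the inhibitory Smad, was at 24.5, 17.3, and 10.8 CPM with RvD1 and 17.5, 18.5, and 16.2 CPM with vehicle. RvD1 libraries held both the highest and the lowest value, and they spanned the vehicle range on both sides. Its log2 fold change was 0.02 (−0.57 to 0.60), and −0.30 (−0.74 to 0.14) without RvD1 replicate 1. On the TPM scale its values were 15.4, 7.77, and 5.62 with RvD1 and 11.1, 10.5, and 7.14 with vehicle.

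Balances between genes were read as TPM ratios within a library. Tgfbr1 exceeded Tgfbr2 1.41-, 1.47-, and 1.43-fold with RvD1 and 1.44-, 1.54-, and 1.56-fold with vehicle. The mean log2 ratio was 0.52 ± 0.03 (SD, n = 3) with RvD1 and 0.60 ± 0.06 with vehicle (exact permutation test, two-sided, p = 0.2, adjusted p = 0.5 over the 3 ratios tested, where 0.1 is the smallest p that 3 against 3 allow). Smad3 was present at 0.139, 0.113, and 0.152 of the level of Smad2 with RvD1 and at 0.124, 0.119, and 0.118 with vehicle. The log2 ratio differed by 0.15 (same exact test, p = 0.4, adjusted p = 0.5). The ratio of Smad7 to Smad3 was 1.68, 1.05, and 0.651 with RvD1 and 1.43, 1.65, and 1.17 with vehicle. Its log2 value was 0.07 ± 0.68 (SD, n = 3) and 0.49 ± 0.25, a difference within the spread of the RvD1 libraries (same exact test, p = 0.5, adjusted p = 0.5). Without RvD1 replicate 1 the differences in log2 ratio were −0.06 for Tgfbr1 to Tgfbr2, 0.13 for Smad3 to Smad2, and −0.76 for Smad7 to Smad3 (exact permutation p = 0.3, 0.6, and 0.1, where 2 against 3 libraries cannot go below 0.1).

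Across the 6 libraries, most of the 10 genes varied in the same direction. Pearson's r of log2 CPM was above 0 for 44 of the 45 pairs of genes, with a median of 0.706 (n = 6 libraries, a description, since the libraries share depth, composition, and group). Without RvD1 replicate 1 the median was 0.273, with 35 of 45 pairs above 0 (n = 5). The closest pair over 6 libraries was Tgfb3 and Tgfbr3 (r = 0.956), with an r of 0.511 without that library. In contrast, Tgfbr2 and Smad4 (0.949 and 0.972), Tgfb1 and Tgfb2 (0.946 and 0.892), and Tgfb2 and Smad7 (0.931 and 0.937) changed little without it. Over the 6 libraries Smad3 and Smad7 had the lowest r, at −0.189, and without that library Tgfb3 and Smad7 (−0.654) and Smad3 and Smad7 (−0.64) had the lowest. The genes whose profile was most like that of Tgfbr3, the gene of the 10 with the largest SD, were Tspan18 (r = 0.999, and 0.998 without RvD1 replicate 1), Msrb3 (0.998 and 0.959), and Unc13a (0.996 and 0.936) among 14493 genes searched, and 143 genes had an r of at least 0.95 over these 6 libraries.

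The rest of the pathway was read from 59 genes in 4 lists, of which 58 were tested. Foxh1, a Smad partner of early development, had 0 to 3 counts and was not tested. No gene passed an adjusted p of 0.05 in edgeR's quasi-likelihood test (smallest adjusted p = 0.971). Of the 58, 4 had an unadjusted p under 0.05 in that test, 3 higher and 1 lower with RvD1, against 1.83% and 1.64% of all genes. The lists were chosen with earlier results of these data known, that of Itgb8 among them. Counts from the lists are therefore a description beside the shares over all genes and not a test. The log2 fold change was above 0 for 42 of the 58, with a median of 0.12. Without RvD1 replicate 1 it was above 0 for 29 of 58, with a median of 0.00085. In that fit 4 of the 58 had an edgeR unadjusted p under 0.05, against 4.33% of all genes in either direction. All 4 were higher with RvD1, 3 of them genes of ligand storage and release and 1 a transcriptional target. The ranges of the groups did not overlap for 5 of the 58, a share close to the 9.62% over all genes.

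Of 15 genes of ligand storage and release, 13 had a log2 fold change above 0 and 2 below, with a median of 0.20. Without RvD1 replicate 1, 11 were above 0 and 4 below, with a median of 0.08. Itgb8, the integrin chain that releases latent TGF-β on cell surfaces and a gene already known from earlier results of these data, was at 18.7, 14.3, and 16.5 CPM with RvD1 and 10.2, 7.93, and 9.34 CPM with vehicle. The groups did not overlap, and the log2 fold change was 0.85 (standard error 0.17, edgeR unadjusted p = 0.000852, adjusted p = 0.971) and 0.75 without RvD1 replicate 1. Nrros, which tethers latent TGF-β on myeloid cells, was at 0.951, 1.61, and 1.11 CPM with RvD1 and 2.11, 2.30, and 2.28 CPM with vehicle. The groups did not overlap either, at a mean of 33.7 counts, and the estimate was −0.85 on the log2 scale (standard error 0.33, edgeR unadjusted p = 0.0281, adjusted p = 0.971). Without RvD1 replicate 1 it was −0.70, with an edgeR unadjusted p of 0.0768. Beside it, 15 macrophage and leukocyte markers summed to 51.5 to 74.7 TPM with RvD1 and 68.4 to 115 TPM with vehicle. Of these markers 14 of 15 had a log2 fold change below 0, and their part in the value of Nrros was not tested. Fmod, a proteoglycan that binds TGF-β, had the largest log2 fold change of the list, 0.86 (standard error 0.44, edgeR adjusted p = 0.971). It was at 493, 108, and 226 CPM with RvD1 and 159, 126, and 170 CPM with vehicle, and the log2 fold change was 0.14 without RvD1 replicate 1.

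The 14 coreceptors and receptor regulators were balanced, with 7 above 0, 7 below, and a median of 0.0048, and with 6 above, 8 below, and a median of −0.03 without RvD1 replicate 1. Pmepa1, a TGF-β-induced inhibitor that binds Smad2 and Smad3, was at 80.4, 29.7, and 24.4 CPM with RvD1 and 35.4, 31.7, and 22.9 CPM with vehicle. The estimate was 0.58, and −0.14 without RvD1 replicate 1. Eng, the coreceptor endoglin of endothelial cells, was at 7.92, 5.49, and 9.04 CPM with RvD1 and 8.73, 5.12, and 11.5 CPM with vehicle, and its estimate was −0.18, and −0.23 without RvD1 replicate 1. Its lowest library in each group was replicate 2, and 10 endothelial markers summed to 17.8 to 25.0 TPM with RvD1 and 10.9 to 32.6 TPM with vehicle. Of the 11 Smad partners and regulators tested, 8 were above 0 and 3 below, with a median of 0.08, and without RvD1 replicate 1 this turned to 3 above and 8 below, with a median of −0.03. Ski, a corepressor of Smads, was at 86.7, 33.3, and 44.9 CPM with RvD1 and 39.7, 32.7, and 47.5 CPM with vehicle. Its estimate was 0.46, and −0.03 without RvD1 replicate 1. Tgif2, another corepressor, had the lowest value of the list, at −0.09, and −0.14 without RvD1 replicate 1.

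Known transcriptional targets of TGF-β, a list of 18 genes, had 14 above 0 and 4 below, with a median of 0.19, and 12 of the 18 were highest in RvD1 replicate 1. Fn1, which encodes fibronectin, was at 426, 209, and 359 CPM with RvD1 and at 211, 206, and 211 CPM with vehicle. RvD1 replicate 2 lay at the vehicle level and the other RvD1 libraries above it. The log2 fold change was 0.66 (standard error 0.22, edgeR unadjusted p = 0.0141, adjusted p = 0.971) and 0.44 without RvD1 replicate 1. Tgfbi, a matrix protein named for its induction by TGF-β, was at 21.9, 12.6, and 25.5 CPM with RvD1 and 13.2, 13.1, and 13.4 CPM with vehicle. RvD1 replicate 2 was the lowest of the 6 libraries, and RvD1 replicates 1 and 3 lay above every vehicle library. Its log2 fold change was 0.59 (standard error 0.24, edgeR unadjusted p = 0.035, adjusted p = 0.971), and 0.52 without RvD1 replicate 1. Cdkn1a, the cell cycle inhibitor p21, had the lowest value of the list, with a log2 fold change of −0.19 and of −0.06 without RvD1 replicate 1. It was at 360, 495, and 491 CPM with RvD1 and 485 to 540 CPM with vehicle. Over this list without RvD1 replicate 1, 9 of the 18 were above 0 and the median was 0.01.

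**Figure D4:**
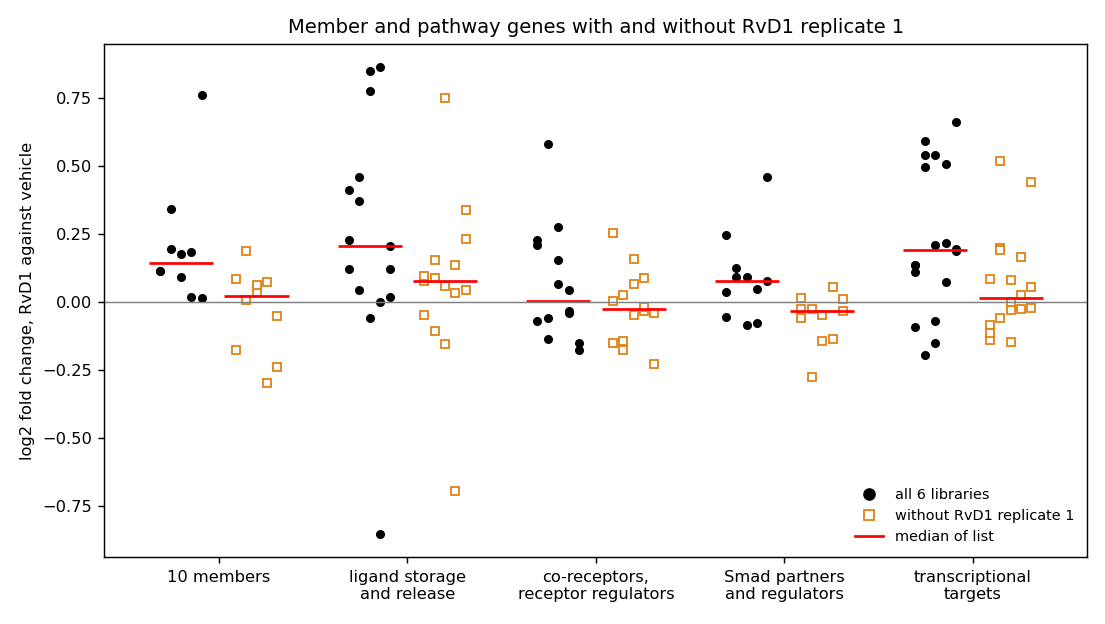
Log2 fold change of RvD1 against vehicle for the 10 genes and the 4 pathway lists, 1 point a gene, over all 6 libraries (black) and without RvD1 replicate 1 (orange), with a red line at the median of each list. The median of the 10 genes shifts from 0.14 to 0.02 and that of the targets from 0.19 to 0.01 when this library is left out.

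Markers of other cells that make or store TGF-β were read beside these values. The summed level in RvD1 replicate 1 was the highest of the 6 libraries for 8 fibro-adipogenic markers (547 TPM, against 234 to 348 TPM in the others, of which Dcn alone gave 450.3 TPM), 6 mural markers (75.3 against 34.8 to 56.4 TPM), 3 tendon markers (169 against 88.4 to 159 TPM), and 3 Schwann cell markers (34.2 against 10.5 to 18.2 TPM). Of the tendon sum in that library, Tnmd alone gave 116.2 TPM. Scx went the other way and was lowest there, at 48.1 TPM against 52.7 to 68.8 TPM in the others. Platelet markers summed to 11.8 TPM in that library and 5.61 to 13.4 TPM in the others. Neutrophil markers summed to at most 1.96 TPM in any library, with S100a9, Ly6g, and Elane at 0 counts throughout, and erythroid markers to 11.3 TPM in that library and 26.3 to 94.5 TPM in the others. By group, fibro-adipogenic markers were at 234 to 547 TPM with RvD1 and 266 to 313 TPM with vehicle, and mural markers at 38.5 to 75.3 TPM and 34.8 to 39.1 TPM. All 6 mural, 3 tendon, and 3 Schwann cell markers had a log2 fold change above 0, as did 4 of the 6 fibro-adipogenic markers tested, while 3 of those 6 (Dcn, Lum, and Dpt) had their highest CPM in RvD1 replicate 1. Dcn is also among the storage genes. The MuSC and myoblast markers also shifted in RvD1 replicate 1, where 7 of the 12 had their highest CPM. Relative to the median of the other 5 libraries, they ranged from 0.591 times (Myod1) to 2.16 times (Megf10), with Pax7 at 1.92 times. The part of these shifts and of the other cells in the values of Tgfbr3 and the other genes was not tested. In bulk libraries fewer cells of a type and less RNA per cell cannot be told apart.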

How the data were processed

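RNA-Seq was performed on MuSCs of 6 mice. The authors aligned 76-bp single-ended reads to mm10 with STAR 2.5.0a and quantified genes with RSEM (version not given in the sources used here). The deposited expected counts are unscaled RSEM estimates. The authors' TPM and FPKM values, also deposited, both correct for transcript length and for depth, and TPM sums to the same total in each library. The labels and the methods differ in RNA input (1 and 10 ng). After removal of 1 stray header row, expected counts were rounded and tested with edgeR 4.0.16 in R 4.3.3 (TMM factors, filterByExpr by group, quasi-likelihood test), with Benjamini-Hochberg adjustment over all genes and a threshold of 0.05. Standard errors and 95% intervals were derived from the fold change and test statistic. Correlations used log2 CPM with a prior count of 2. Ratios were compared by exact permutation of libraries. Positions were taken from GENCODE M21 on GRCm38. The kit does not mark strand.

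The 10 genes and the lists were chosen with earlier results of these data known. Named pathway genes are, in each list, those at an unadjusted p under 0.05 and those with the largest and smallest log2 fold change. The profile likeness was searched for the gene of the 10 with at least 100 mean counts and the largest SD. Alternatives were DESeq2 1.42.0, limma 3.58.1 with and without sva 3.50.0, other factors and filters, robust dispersion, a replicate block, log2 TPM and FPKM, and each library left out in turn. The tests were checked on simulated counts. The edgeR p values set each group difference against the spread between these mice.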

Additional observations from a re-analysis of the deposited data

How the results depend on the processing

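No gene of the 10 and no pathway gene passed an adjusted p of 0.05 under any of the 18 alternatives run. The smallest adjusted p of any of the 10 was 0.435 (Tgfb3, limma-voom with 1 surrogate variable removed). The study used limma-voom with surrogate variables removed but gave neither their number nor a filter, so both were chosen here. Over all genes, the count of 0 became 12 without a count filter in edgeR and 0 to 1 with 1 library left out (1 without RvD1 replicate 3). In edgeR 503 of 14494 genes had an unadjusted p under 0.05. The count became 2973 of 26518 with limma-voom on library totals without TMM factors, 1 surrogate variable removed, and a looser filter. There the surrogate variable was subtracted before the test and took no degree of freedom. The p values of that fit are therefore too small, also for the pathway genes and the 10 genes. The count was 1143 of 26641 without a count filter in edgeR and 896 of 14494 with the replicate block. With 1 library left out it was 282 to 1016, and the highest count was that without RvD1 replicate 2. For the pathway genes the count of 4 of 58 became 12 of 59 with the surrogate variable removed, 13 of 59 without a count filter, and 8 of 58 with the replicate block. With 1 library left out it was 3 to 13, with 13 reached without RvD1 replicate 2, where the count over all genes was 1016. Among the 10 genes such a p was seen for Tgfb3 with the surrogate variable removed. It was also seen for Tgfb3 and Tgfbr3 without a count filter or without RvD1 replicate 2, and for Tgfbr1 and Tgfbr3 without RvD1 replicate 3. With the surrogate variable removed, without a count filter, and without RvD1 replicate 2, the count over all genes was above 503 as well. Without RvD1 replicate 3 the count over all genes lay within 282 to 1016, the range with 1 library left out. Its exact share is not given here, so Tgfbr1 and Tgfbr3 in that fit are not set against it.

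Directions turned only where the estimate was near 0 or where a library was left out. Tgfb1 was at −0.0043 with limma-voom, −0.068 with limma-voom and the surrogate variable removed, and −0.014 with the replicate block. Smad7 was at −0.033, −0.10, and −0.054 in these fits, and at −0.084, −0.10, and −0.11 with log2(TPM + 1), log2(TPM + 0.1), and log2(FPKM + 1). Tgif2 was at 0.0041 and 0.0043 with log2(TPM + 1) and log2(TPM + 0.1). With 1 library left out, the log2 fold change ranged from −0.24 to 0.15 for Tgfb1, −0.18 to 0.28 for Tgfb2, −0.051 to 1.06 for Tgfbr3, −0.30 to 0.26 for Smad7, −0.14 to 0.87 for Pmepa1, −0.035 to 0.72 for Ski, −0.44 to 0.11 for Eng, and −0.19 to 0.017 for Tgif2. The sign turned without RvD1 replicate 1 for Tgfb1, Tgfb2, Tgfbr3, Smad7, Pmepa1, and Ski, without RvD1 replicate 2 for Eng, without RvD1 replicate 3 for Tgif2, and without vehicle replicate 3 for Tgfb1, Smad7, and Eng. The cause was not tested. Smad3 lay between 0.14 and 0.32 over all alternatives. The 3 ratios kept their sign, but their differences were smaller on TMM-normalized CPM than on TPM. They were −0.012 against −0.073 for Tgfbr1 to Tgfbr2, 0.085 against 0.15 for Smad3 to Smad2, and −0.26 against −0.42 for Smad7 to Smad3. Libraries of the 2 groups that carry 1 number are from different mice, and same-numbered libraries deviated together for numbers 1 and 3 (r = 0.31 and 0.126) and not for 2 (−0.00071). With the replicate block, 0 of the 10 genes and 0 genes in all passed the threshold. With 3 mice a group, differences smaller than the intervals given were not detectable.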

Other observations

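Itgav, Tgfbrap1, and Timp1, chosen after their values were seen, were the pathway genes other than Itgb8 and Nrros whose groups did not overlap in CPM, 5 of 58 in all, where 9.62% of all genes did not overlap. The log2 fold change was 0.12 for Itgav, which pairs with Itgb8 in the integrin that releases latent TGF-β, 0.23 for Tgfbrap1, a receptor-associated protein, and −0.15 for Timp1, a metalloproteinase inhibitor. None had an edgeR unadjusted p under 0.05. The counts per TPM, scaled to the library total, should be constant for a gene quantified with the same transcript mixture in every library. Their coefficient of variation over the 6 libraries was 15.2% for Smad7, 12.6% for Tgfb2, and 8.9% for Tgfb1, against 2.34% to 5.89% for the other 7 genes.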
